A study of Mus musculus with 9 samples.

Results

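Histone genes were taken as the rows of the mouse count table whose symbols begin with Hist1h to Hist4h, H2af, H3f3 or H1f, which gave 82 of 23366 rows. Of these, 68 are named as members of the histone gene clusters and are called replication-dependent here, and 14 (H2af, H3f3 and H1f) are called replacement genes. Gene expression had been measured by RNA sequencing, with total RNA given as the extracted molecule, in embryonic stem cells of the strain 129 SvJae F1 at passage 21. The cells were kept in medium with fetal bovine serum and LIF, the leukaemia inhibitory factor that holds mouse stem cells undifferentiated. Wild-type cells (3 libraries) were compared with cells lacking Sirt6, which encodes a histone deacetylase (3 libraries); the 3 libraries of glucose-deprived wild-type cells were not analysed here. The labels do not say how many knockout clones were used or whether replicates were separate cultures, and they do not say whether polyadenylated RNA was selected.

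Replication-dependent histone genes supply the bulk of core and linker histones during S phase, when new DNA is wrapped into nucleosomes. Most have no introns, and their mRNAs usually end after a short stem-loop, bound by the stem-loop binding protein SLBP, in place of a poly(A) tail. Replacement genes encode variants such as H3.3, H2A.Z, macroH2A and H1.0, are transcribed throughout the cell cycle, and usually have polyadenylated mRNAs.

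The annotation of the members followed that division. In the GENCODE M21 annotation (GRCm38), 63 of 68 replication-dependent genes had a single exon in their main transcript, against 7 of 14 replacement genes. A histone stem-loop was found after the stop codon in 45 replication-dependent genes, 21 to 58 bases downstream, and in 1 replacement gene, H2afx. Another 22 replication-dependent genes with a coding sequence showed none. Several of these are annotated at about the length of a coding sequence, such as Hist1h4k (312 bases) and Hist2h2bb (381 bases). A stem-loop past the stop codon could not be found in those. Over both sets there were 9 distinct stem-loops, and 1 sequence was shared by 25 members from the H1, H2A, H2B and H3 families. Another was shared by 7 members, all of them H4 genes. The sites of members described below are given to show this shared element, with the stem-loop in capitals and 5 bases on either side in lower case, as the DNA sense strand in GENCODE M21.
Hist1h1c: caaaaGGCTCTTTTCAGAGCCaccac
Hist3h2a: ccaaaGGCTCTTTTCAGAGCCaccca
Hist3h2ba: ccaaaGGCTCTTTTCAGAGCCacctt
Hist1h1t: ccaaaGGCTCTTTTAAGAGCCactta
Hist1h3f: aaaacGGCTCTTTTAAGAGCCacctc
Hist1h4d: ccaaaGGCCCTTTTCAGGGCCactac
Hist4h4: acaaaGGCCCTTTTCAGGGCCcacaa
H2afx: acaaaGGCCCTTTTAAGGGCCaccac

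Hist1h1c, Hist3h2a and Hist3h2ba carried the sequence shared by 25 members, and Hist1h4d and Hist4h4 the one shared by the H4 genes. Some of these genes also had a polyadenylation signal (AATAAA or ATTAAA) in the last 60 bases of their main annotated transcript, 17 of 68 replication-dependent and 9 of 14 replacement genes. Of the 17, 13 also had a stem-loop, among them Hist1h1c, Hist1h1t, Hist3h2a, Hist3h2ba and Hist4h4, and so did H2afx.

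Promoters from RefSeq (GRCm38.p6, 250 bases before to 50 bases after the start) were matched for 72 members, 61 replication-dependent and 11 replacement, and searched on both strands. The letters TATAAA were present in 57.4% of replication-dependent promoters, 9.09% of replacement promoters and 13.6% of all 32851 promoters in the table. CCAAT was present in 85.3%, 63.6% and 37.4%, in that order. All replication-dependent H1, H2A, H2B and H3 promoters held it, and 3 of 12 H4 promoters did. The octamer ATGCAAAT, a motif known from H2B promoters, was in 6 of 16 H2B and 7 of 17 H2A promoters and in 1.74% of all. Windows of divergent H2A and H2B genes can overlap, so the same match can count for both, as the octamer does for Hist1h2aa and Hist1h2ba. The letters AAACACA, known as the H1 box, were in 5 of 6 replication-dependent H1 promoters and in 7.18% of all. None of the 4 motifs contains another, and a match is only a description of the window.

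The promoters of 4 genes that differed between the groups are shown, with matches to the 4 motifs in capitals. The Hist1h2aa window (chr13:23934187-23934486, plus strand) overlaps that of Hist1h2ba, which starts in the opposite direction (chr13:23934107-23934406, minus strand). Those of Hist1h1t (chr13:23695561-23695860), Hist3h2a (chr11:58954435-58954734) and H1f0 (chr15:79027962-79028261) are on the plus strand.
Hist1h2aa: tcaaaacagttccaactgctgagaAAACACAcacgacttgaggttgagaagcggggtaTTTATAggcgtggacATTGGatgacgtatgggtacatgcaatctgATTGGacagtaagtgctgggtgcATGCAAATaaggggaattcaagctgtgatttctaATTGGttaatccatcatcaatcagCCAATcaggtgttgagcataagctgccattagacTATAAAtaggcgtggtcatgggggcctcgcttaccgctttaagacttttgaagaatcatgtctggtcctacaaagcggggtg
Hist1h1t: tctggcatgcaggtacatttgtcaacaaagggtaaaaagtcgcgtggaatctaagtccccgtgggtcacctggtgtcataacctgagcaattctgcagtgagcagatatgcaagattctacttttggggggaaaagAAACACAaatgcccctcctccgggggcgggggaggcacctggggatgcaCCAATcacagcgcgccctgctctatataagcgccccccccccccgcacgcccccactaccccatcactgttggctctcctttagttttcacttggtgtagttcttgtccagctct
Hist3h2a: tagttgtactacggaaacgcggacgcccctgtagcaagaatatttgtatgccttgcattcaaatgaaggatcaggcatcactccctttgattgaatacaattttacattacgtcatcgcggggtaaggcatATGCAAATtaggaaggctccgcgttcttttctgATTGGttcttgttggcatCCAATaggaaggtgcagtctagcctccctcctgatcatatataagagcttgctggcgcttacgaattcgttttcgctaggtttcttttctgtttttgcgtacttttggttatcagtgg
H1f0: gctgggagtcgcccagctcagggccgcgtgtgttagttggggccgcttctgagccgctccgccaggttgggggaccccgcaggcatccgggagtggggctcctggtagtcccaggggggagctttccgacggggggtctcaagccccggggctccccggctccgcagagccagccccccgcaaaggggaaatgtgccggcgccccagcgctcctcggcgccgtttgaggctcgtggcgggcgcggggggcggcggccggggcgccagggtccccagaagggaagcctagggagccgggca

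All 4 motifs matched in the Hist1h2aa window, CCAAT and the H1 box in that of Hist1h1t, and CCAAT and the octamer in that of Hist3h2a. None of the 4 matched in that of H1f0.

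Total counts per library ran from 20107037 to 29267115, and levels are given as CPM, counts scaled to library sizes adjusted by edgeR's trimmed mean of M values (TMM). Sirt6 was counted 348, 341 and 342 times in wild type, against 12, 6 and 6 times in the knockout. Of 10 pluripotency markers all were expressed, with summed levels of 5895 to 6531 CPM in wild type and 6288 to 8035 CPM in the knockout, and of the 10, 3 rose and 4 fell. Of 10 fibroblast markers, Lum and Fap were at 0 in all libraries, and the summed level was 5.59 to 6.02 CPM in wild type and 13.7 to 17.4 CPM in the knockout; the 4 that were tested rose. The 12 markers of differentiated germ layers summed to 66.4 to 70.2 CPM and 63.8 to 76.5 CPM, with 2 higher and 5 lower of 9 tested. Among sex-chromosome markers, Xist fell from 38.2 to 4.06 CPM. The Y-linked genes Ddx3y (7.74 to 91.4 CPM), Eif2s3y (24.8 to 91.04 CPM) and Uty (7.31 to 38.1 CPM) rose, and so did Kdm5d, at 0 in wild type and 2.41 CPM in the knockout. Whether these go with the cell line or with the genotype cannot be told apart in this design.

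Few replication-dependent genes were called, and the largest rises were in testis-type genes and the Hist3 cluster. Across all 14988 genes tested, 55.7% were called at an adjusted p under 0.05 (edgeR's quasi-likelihood test), 27.9% higher and 27.8% lower in the knockout. Of the 60 replication-dependent genes that passed the low-count filter, 8 rose and 2 fell, or 16.7%. Of the 11 replacement genes that passed, 4 rose and 2 fell, or 54.5%, close to the share over all genes. Over all tested genes, the groups did not overlap in 63.2% (31.2% with the knockout above and 32% below). This held for 9 replication-dependent genes, 7 above and 2 below, and 7 replacement genes, 4 above and 3 below. The median log2 fold change was 0.05 in the replication-dependent genes, 0.03 in the replacement genes and 0.01 in all genes tested. The authors' deposited table gave the same 16 members as called at that threshold, 12 higher and 4 lower. Fold changes of the replication-dependent genes were less precisely measured, with a median standard error (log2) of 0.221 in the replication-dependent, 0.130 in the replacement and 0.136 in all tested genes.

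**Figure D1:**
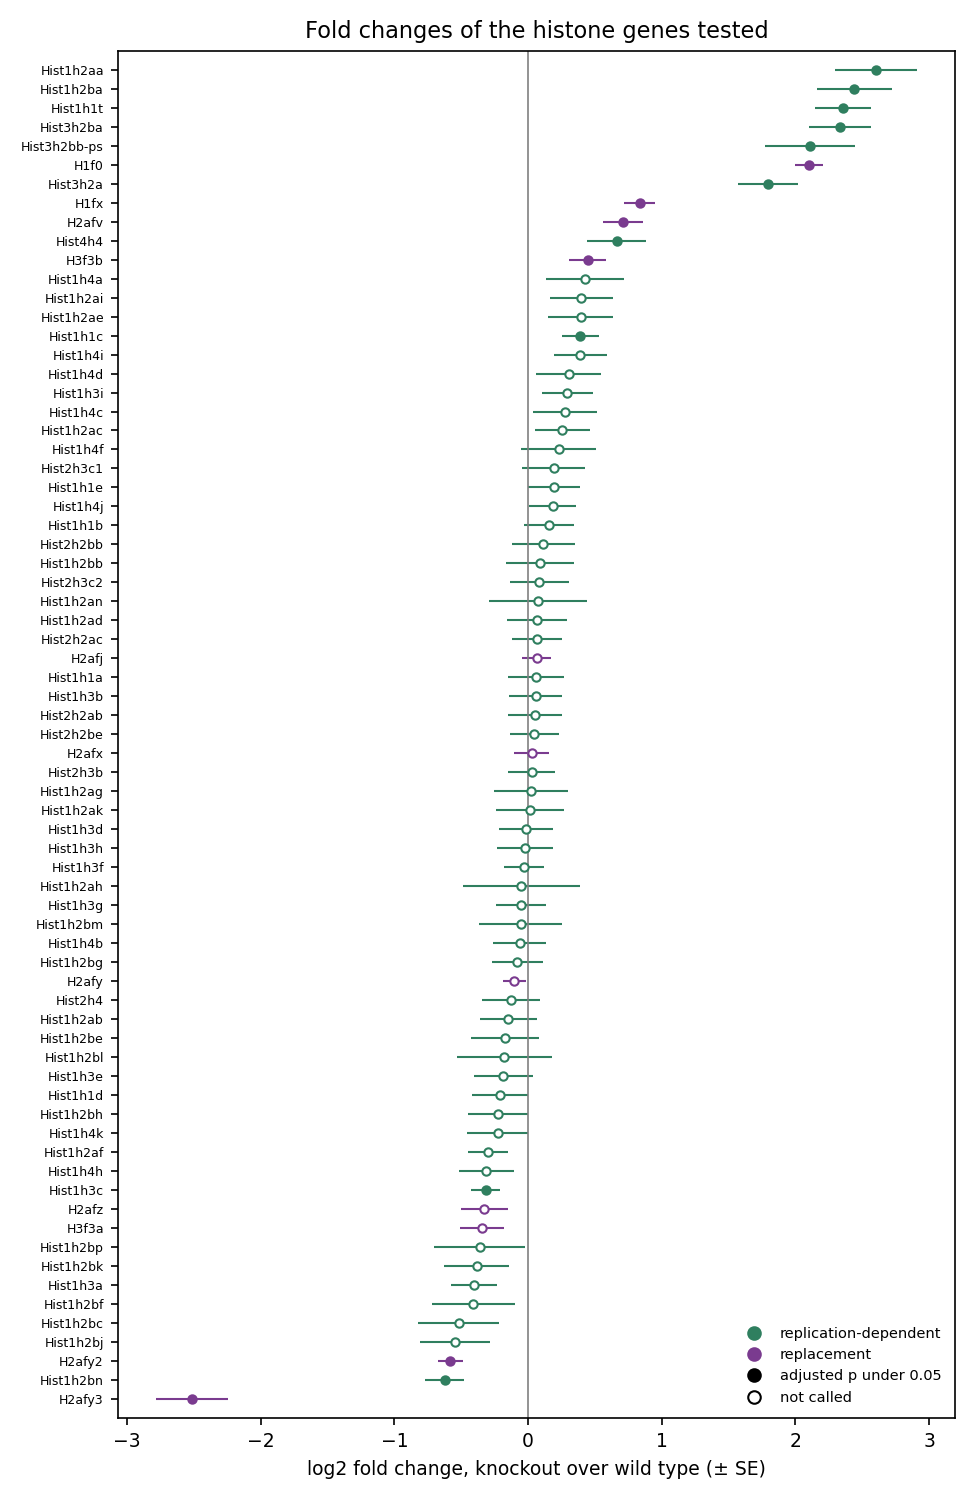
Log2 fold change, knockout over wild type, of the 71 histone genes tested, with bars of 1 standard error from edgeR. Filled points are the 16 called genes; 6 replication-dependent genes and H1f0 lie above 1 on the log2 scale, and H2afy3 lies alone below -1.

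The other 11 members, 8 replication-dependent and 3 replacement genes, were not tested. Hist1h2ao, Hist1h2ap, Hist1h2bq, Hist1h2br, Hist2h2aa1 and H2afb1 were listed at 0 in all 6 libraries. Hist1h4m, Hist2h2aa2 and the oocyte linker histone gene H1foo had 1, 3 and 2 counts in all. Hist1h4n had 3, 7 and 4 counts in wild type against 10, 12 and 11 in the knockout. The testis linker histone gene H1fnt had 8, 7 and 11 counts in wild type against 6, 3 and 1 in the knockout.

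Many members are near-identical copies, and the sources used here do not say how reads that match several genes were counted. Per gene, the share of 50-base words found in no other annotated gene was taken, with genes that overlap the member left out. Words shared with an overlapping gene thus count as the member's own. The median share was 53.6% for the replication-dependent set and 95.8% for the replacement set. In 30 replication-dependent genes this share was under 50%. Of the 22 of these that were tested, 0 rose and 1 fell in edgeR (0 higher also at an unadjusted p under 0.05, with DESeq2 and with limma-voom), and of the 38 others, all tested, 8 rose and 1 fell. Values of the 30 genes are uncertain one by one.

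The replication-dependent transcripts varied more within the knockout group than between the groups. Their summed level was 8333, 9095 and 8799 CPM in wild type, against 6327, 9173 and 12876 CPM in the knockout. The knockout libraries thus lay below, just above and far above the wild-type range, and the group means, 8742 ± 384 and 9459 ± 3284 CPM (SD, n = 3), differed by less than the spread. Each of the 60 tested genes was higher in knockout replicate 3 than in knockout replicate 1, with a median log2 difference of 1. In 52 of the 60 genes knockout replicate 1 was lowest and replicate 3 highest of that group. The median coefficient of variation of the 60 genes was 11.5% in wild type and 35.5% in the knockout, against 6.79% and 14.1% over all tested genes. In bulk RNA, a change in the share of cells in S phase and a change in histone RNA per cell cannot be told apart.

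Other transcripts moved with these differences between knockout libraries, and their part in the result was not tested. From knockout replicate 1 to replicate 3 the median log2 difference was -0.10 over all tested genes. It was 0.31 in 507 other genes with an exonic length of up to 1000 bases, of which 78.1% were higher in replicate 3. The median over Rmrp, Rpph1 and Terc, abundant short noncoding RNAs, was 1.15. For 28 genes of S phase entry and origin firing it was 0.01, with 15 of the 28 higher in replicate 3. Between wild-type replicates 1 and 3 the median over the replication-dependent genes was 0.13.

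**Figure D2:**
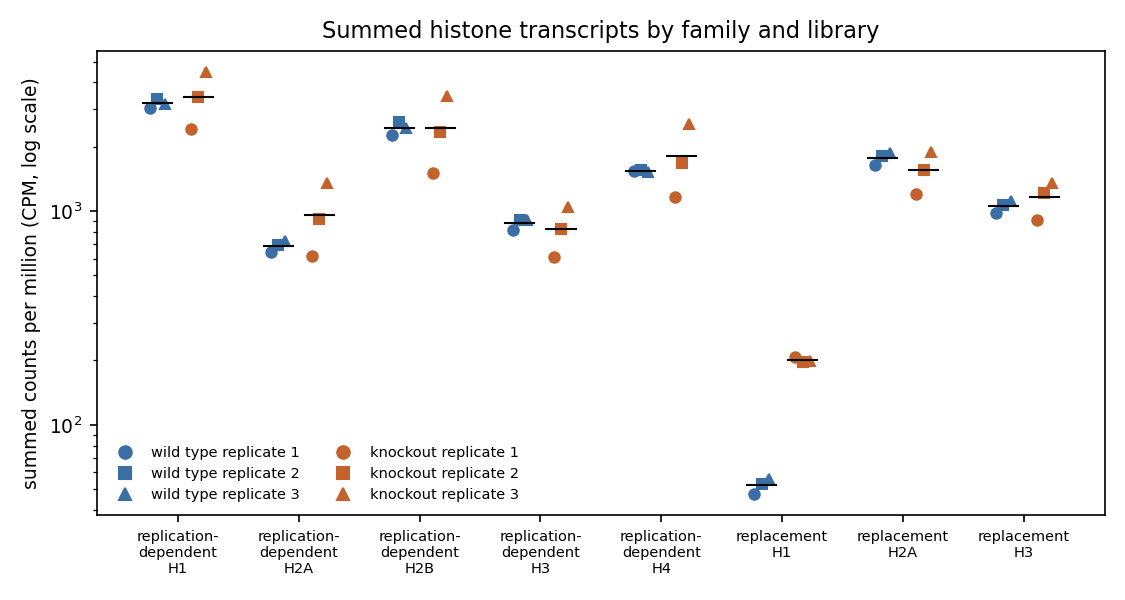
Summed CPM (log scale) of each histone family in each library, with the mean of each group as a line. The 5 replication-dependent families overlap between the groups, with knockout replicate 1 low and knockout replicate 3 high, while the summed replacement H1 genes lie at 47.4 to 55.6 CPM in wild type and 197 to 208 CPM in the knockout.

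The counts of called genes therefore depended on single libraries. Without knockout replicate 1, 24 replication-dependent genes were higher and 2 lower, and over all genes the counts went from 4182 to 4961 higher and from 4163 to 4915 lower. Without knockout replicate 3, 6 replication-dependent genes were higher and 22 lower, with 4260 higher and 4407 lower over all genes. The median log2 fold change of the set was 0.28 in the first case and -0.23 in the second. All 6 genes past a log2 change of 1 kept their call and sign under each library left out.

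Among the linker histone genes, H1f0, H1fx, Hist1h1t and Hist1h1c rose. H1f0, which encodes H1.0, the variant known to build up in cells that leave the cycle or differentiate, had 39.3, 43.7 and 47.5 CPM in wild type and 193, 182 and 185 CPM in the knockout. All knockout libraries lay above all wild-type libraries, and the spread in each group was small. The change was 4.29-fold (log2 2.10 ± 0.103 SE, adjusted p = 1.32e-07 in edgeR), and H1f0 took 1.34% ± 0.111 of H1 counts in wild type against 5.46% ± 1.74 in the knockout (SD, n = 3). H1fx, the gene of the ubiquitous variant H1x, had 7.67, 9.08 and 7.72 CPM in wild type and 14.8, 14.7 and 14.1 CPM in the knockout (log2 0.84 ± 0.115 SE, adjusted p = 0.000119 in edgeR). Its groups did not overlap either. An opposite-strand gene that overlaps it, Gm5577, was at 3.27 CPM in wild type and 2.20 CPM in the knockout, and the counting is not stated to use strand.

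Hist1h1t encodes H1t, the linker histone of spermatocytes. Its level was 6.30, 6.69 and 7.49 CPM in wild type and 23.5, 37.7 and 43.9 CPM in the knockout. Every knockout library lay above every wild-type library, and the change was 5.11-fold (log2 2.35 ± 0.208 SE, adjusted p = 5.25e-06 in edgeR). Within each library, Hist1h1t was 0.211% ± 0.0186 of H1 counts in wild type against 0.961% ± 0.0777 in the knockout (SD, n = 3).

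The main somatic linker genes, which supply most H1 in dividing cells, were far more abundant. Hist1h1a, the most counted H1 gene, had 962, 1043 and 1081 CPM in wild type and 707, 1070 and 1443 CPM in the knockout. The groups overlapped, and its fold change did not pass the test (log2 0.06 ± 0.209 SE, adjusted p = 0.819 in edgeR). Hist1h1b, Hist1h1d and Hist1h1e likewise overlapped and were not called (log2 0.16, -0.21 and 0.19); Hist1h1e overlaps Hist1h2be on the same strand, so its counts are uncertain. Hist1h1c, the gene of H1.2, had 429, 464 and 476 CPM in wild type and 485, 590 and 721 CPM in the knockout. Its groups did not overlap, and it rose slightly (log2 0.39 ± 0.141 SE, adjusted p = 0.0355 in edgeR). That call was lost without any 1 of 5 libraries, with an adjusted p of up to 0.126.

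**Figure D3:**
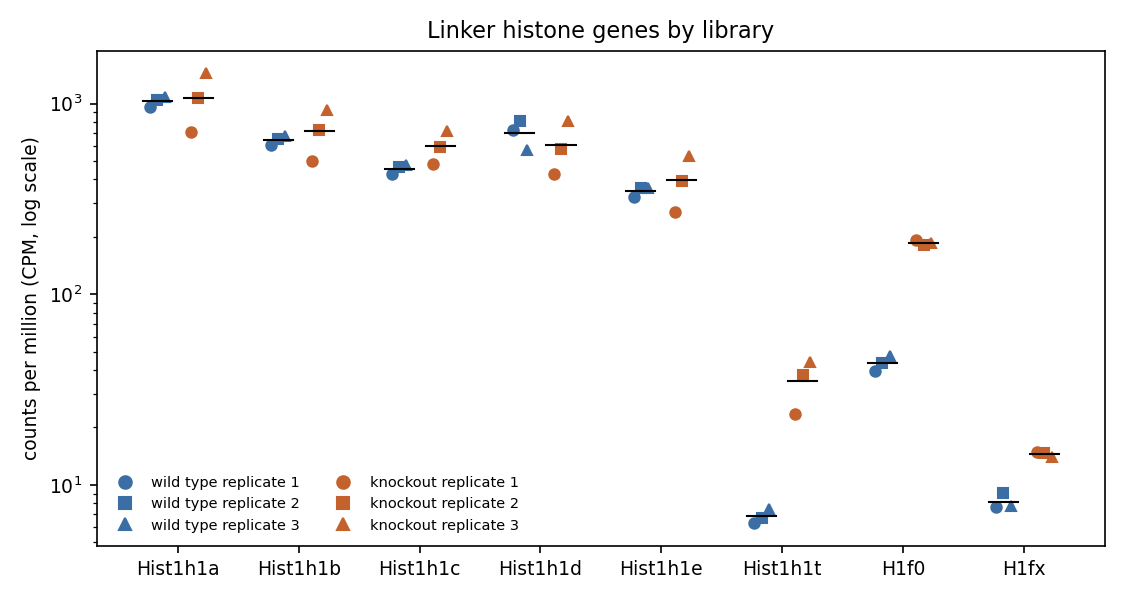
CPM (log scale) of the 8 tested linker histone genes in each library, with the mean of each group as a line. H1f0, H1fx and Hist1h1t separate the groups widely, the knockout libraries of H1f0 lying between 182 and 193 CPM.

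The testis pair Hist1h2aa and Hist1h2ba rose together. They encode TH2A and TH2B, core histones known from the male germline and the oocyte, and start 306 bases apart on opposite strands, so that the Hist1h2aa promoter window above holds sequence before both. Hist1h2aa had 2.50, 2.84 and 3.44 CPM in wild type and 9.91, 18.7 and 25.3 CPM in the knockout (log2 2.60 ± 0.306 SE, adjusted p = 3.87e-05 in edgeR). Hist1h2ba had 1.79, 1.13 and 1.47 CPM in wild type and 5.35, 7.94 and 11.1 CPM in the knockout (log2 2.44 ± 0.281 SE, adjusted p = 3.30e-05 in edgeR). In both genes every knockout library lay above every wild-type library. The log2 ratio of Hist1h2aa to Hist1h2ba counts was 0.48 to 1.33 in wild type and 0.89 to 1.23 in the knockout, so the balance within the pair overlapped between the groups. In the knockout they stood at 46.0 and 21.1 CPM per kilobase, against 3540 for Hist2h2bb, the highest member. Most other tested H2A genes of the clusters stood above Hist1h2aa there, but some stood below it, such as Hist1h2ac at 24.7 and Hist2h2ab at 32.7. Nearly all other tested H2B genes stood above Hist1h2ba, such as Hist1h2be at 32.2.

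All 3 members of the small Hist3 cluster rose. They summed to 102, 109 and 111 CPM in wild type and 244, 402 and 539 CPM in the knockout. Hist3h2a had the most counts of the replication-dependent H2A genes over the 6 libraries together, but in wild type Hist1h2ak was higher (113 against 91.7 CPM). Hist3h2a had 88.3, 91.8 and 95.1 CPM in wild type and 196, 327 and 433 CPM in the knockout (log2 1.80 ± 0.226 SE, adjusted p = 6.09e-05 in edgeR). Hist3h2ba, an H2B gene, had 11.3, 14.7 and 13.5 CPM in wild type and 42.9, 65.2 and 91.1 CPM in the knockout (log2 2.33 ± 0.235 SE, adjusted p = 1.29e-05 in edgeR). Hist3h2bb-ps, annotated as a processed pseudogene and starting 173 bases from Hist3h2a on the opposite strand, was at 2.16 to 2.43 CPM in wild type and 5.19 to 15.2 CPM in the knockout (log2 2.11, adjusted p = 0.000313 in edgeR). It shares sequence with Hist3h2ba, and 70.0% of its 50-base words were its own. None of the 3 genes overlapped between the groups. Trim17, which overlaps Hist3h2a on the same strand, was at 0.761 CPM in wild type and 0.849 CPM in the knockout.

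The rise of the Hist3 cluster was clear within each library as well. Its share of replication-dependent counts was 1.22%, 1.20% and 1.26% in wild type and 3.86%, 4.38% and 4.19% in the knockout. The level of the cluster varied 2.21-fold between knockout libraries while this share varied little, and the groups lay far apart.

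Outside the Hist3 cluster and the testis pair, the H2A and H2B genes were mostly not called. Hist2h2bb, an H2B gene of the Hist2 cluster, was the most counted H2B gene and had the highest level per kilobase of all members, 3270 ± 202 CPM per kilobase in wild type against 3540 ± 1422 in the knockout (SD, n = 3). That rank rests on an annotated length of 381 bases, which is not from the authors' build. All of its 50-base words were its own, unlike those of most H2B genes, so the rank is uncertain. Genes overlapping Hist2h2bb were left out of that word comparison, and Gm42743 overlaps it on the same strand. It had 1158, 1277 and 1302 CPM in wild type and 818, 1328 and 1900 CPM in the knockout. The groups overlapped, and it did not pass the test (log2 0.11 ± 0.238 SE, adjusted p = 0.705 in edgeR). Hist1h2bn was the only H2A or H2B gene of the clusters called lower, with 41.7, 48.0 and 33.3 CPM in wild type and 23.6, 30.98 and 25.2 CPM in the knockout (log2 -0.62 ± 0.148 SE, adjusted p = 0.00422 in edgeR). Its groups did not overlap, but only 13.6% of its 50-base words were its own, so the value is uncertain.

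Most Hist1 H2A genes lie in divergent pairs with an H2B gene, in which the starts of the partners are 176 to 306 bases apart. Of 11 such pairs, Hist1h2ao with Hist1h2bq and Hist1h2ap with Hist1h2br were at 0, and the testis pair is described above. In each of the 8 remaining pairs the H2A partner had the higher log2 fold change, by 0.33 to 0.78 with a median of 0.52. Summed over these pairs, the log2 ratio of H2A to H2B counts was -0.99, -1.05 and -0.80 in wild type, against -0.46, -0.48 and -0.35 in the knockout. The summed ratio separated the groups, including knockout replicates 1 and 3, whose histone levels were furthest apart. Single pairs were noisier, and only Hist1h2ac with Hist1h2bc and Hist1h2ad with Hist1h2bf showed no overlap. By mean log2 ratio within libraries, the single pairs rose by 0.08 (Hist1h2ah with Hist1h2bk) to 0.88 (Hist1h2ac with Hist1h2bc). In Hist1h2ah with Hist1h2bk, knockout replicates 1 and 2 (-2.40 and -2.50) lay below all wild-type libraries and replicate 3 (-1.24) above them. This grouping was chosen after the values were seen and was given no test. In these 16 genes a median of 33.6% of 50-base words were their own (9.27% to 88.4%), so reads of copies inside and outside the pairs may be mixed. The pattern did not hold in each divergent pair outside Hist1. The log2 fold changes were 0.07 and 0.05 in Hist2h2ac with Hist2h2be. In Hist3h2a with Hist3h2bb-ps the H2A partner had the lower one (1.80 against 2.11).

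**Figure D4:**
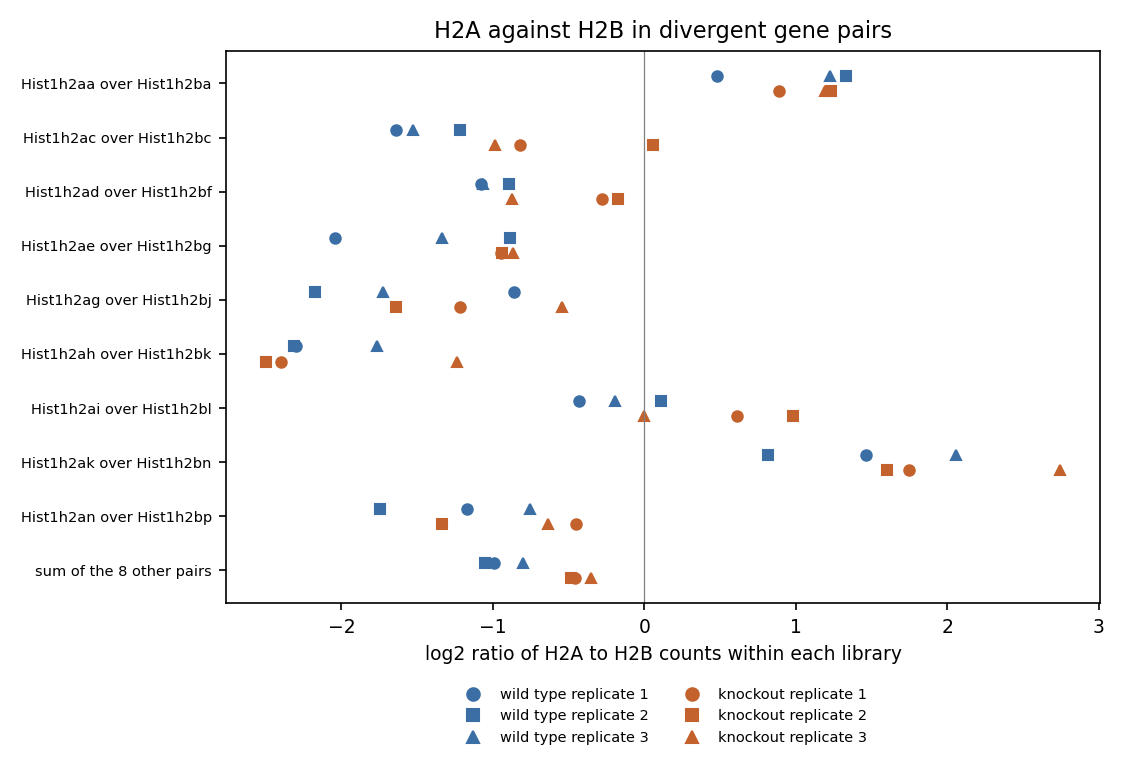
Log2 ratio of H2A to H2B counts in each library for the 9 divergent Hist1 pairs with counts and for the sum of the 8 pairs without Hist1h2aa and Hist1h2ba. The summed ratio lies between -1.05 and -0.80 in wild type and between -0.48 and -0.35 in the knockout, while most single pairs overlap.

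Among replacement H2A genes, both H2A.Z genes were compared first. H2A.Z marks nucleosomes beside active promoters, and H2afz and H2afv encode its forms H2A.Z.1 and H2A.Z.2. H2afz had 1113, 1240 and 1285 CPM in wild type and 695, 992 and 1214 CPM in the knockout. The groups overlapped, and it was not called (log2 -0.33 ± 0.179 SE, adjusted p = 0.142 in edgeR). H2afv had 41.6, 47.7 and 50.1 CPM in wild type and 60.5, 74.4 and 93.2 CPM in the knockout. The groups did not overlap, and it rose (log2 0.71 ± 0.149 SE, adjusted p = 0.00200 in edgeR). H2afz remained the major form, at 96.3% ± 0.0763 of the counts of both genes in wild type against 92.6% ± 0.556 in the knockout (SD, n = 3). These are shares of counts, not of transcripts. Of the 50-base words of H2afz 64.6% were its own, against 100% for H2afv, so its counts are less certain.

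The macroH2A genes encode large H2A variants with a macro domain, known from the inactive X chromosome and from silenced genes. H2afy, the gene of macroH2A1, had 106, 106 and 113 CPM in wild type and 101, 101 and 100 CPM in the knockout. Its knockout libraries all lay below wild type, yet the small difference was not called (log2 -0.10 ± 0.0869 SE, adjusted p = 0.333 in edgeR), and its sign turned with total counts as scaling (log2 0.02). H2afy2, the gene of macroH2A2, had 27.3, 28.0 and 29.2 CPM in wild type and 18.4, 18.8 and 19.2 CPM in the knockout. It fell with little spread in either group (log2 -0.58 ± 0.0938 SE, adjusted p = 0.000345 in edgeR). Aifm2, which overlaps it on the opposite strand, was at 16.1 CPM in wild type and 17.9 CPM in the knockout and was not called.

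H2afy3 is annotated as a processed pseudogene and lies on the opposite strand of the noncoding gene Pvt1. It had 84, 84 and 64 counts in wild type against 13, 18 and 9 in the knockout, or 3.04 ± 0.527 and 0.532 ± 0.178 CPM (SD, n = 3). The groups did not overlap, and it fell 5.71-fold (log2 -2.51 ± 0.266 SE, adjusted p = 1.84e-05 in edgeR). Pvt1 fell too, from 35.5 ± 1.33 to 22.1 ± 4.29 CPM (log2 -0.69 ± 0.134 SE, adjusted p = 0.00128 in edgeR). Without strand, reads of the 2 genes cannot be told apart, and their part in the result was not tested. H2afy3 also shares sequence with H2afy2, and 86.6% of the 50-base words of H2afy3 were its own.

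The other replacement H2A genes were not called. H2afx, whose protein H2A.X is phosphorylated at DNA breaks, had 330, 357 and 361 CPM in wild type and 303, 338 and 426 CPM in the knockout (log2 0.03 ± 0.130 SE, adjusted p = 0.873 in edgeR). H2afj, which encodes H2A.J, had 27.0, 30.2 and 31.05 CPM in wild type and 29.3, 28.5 and 34.6 CPM in the knockout (log2 0.06 ± 0.110 SE, adjusted p = 0.641 in edgeR). Both overlapped between the groups, and the sign of each turned without knockout replicate 3.

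The H3.3 genes H3f3a and H3f3b encode the same protein, which is placed outside replication at active genes, telomeres and other sites. H3f3b had 544, 574 and 601 CPM in wild type and 628, 809 and 906 CPM in the knockout. The groups did not overlap, and it rose (log2 0.45 ± 0.138 SE, adjusted p = 0.0174 in edgeR), although that call was lost without any 1 of 4 libraries, with an adjusted p of up to 0.0747. H3f3a had 437, 493 and 515 CPM in wild type and 275, 412 and 448 CPM in the knockout. One knockout library lay inside the wild-type range, and it was not called (log2 -0.35 ± 0.165 SE, adjusted p = 0.0952 in edgeR).

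The balance of the H3.3 genes separated the groups more sharply than either level. H3f3b made up 55.5%, 53.8% and 53.8% of the counts of both genes in wild type and 69.5%, 66.2% and 66.9% in the knockout. The summed H3.3 level overlapped, at 1054 ± 68.6 CPM in wild type and 1160 ± 232 CPM in the knockout (SD, n = 3). H3.3 genes together took 54.6% ± 0.483 of all H3 counts in wild type against 58.6% ± 1.83 in the knockout (SD, n = 3), with no overlap. These are shares of counts, not of transcripts. H3f3a and H3f3b have 3504 and 2976 exonic bases, against 1261 for Hist1h3f. Of their 50-base words 86.6% and 93.1% were their own, against 50.7% for Hist1h3f, so reads of cluster H3 genes are less certain.

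**Figure D5:**
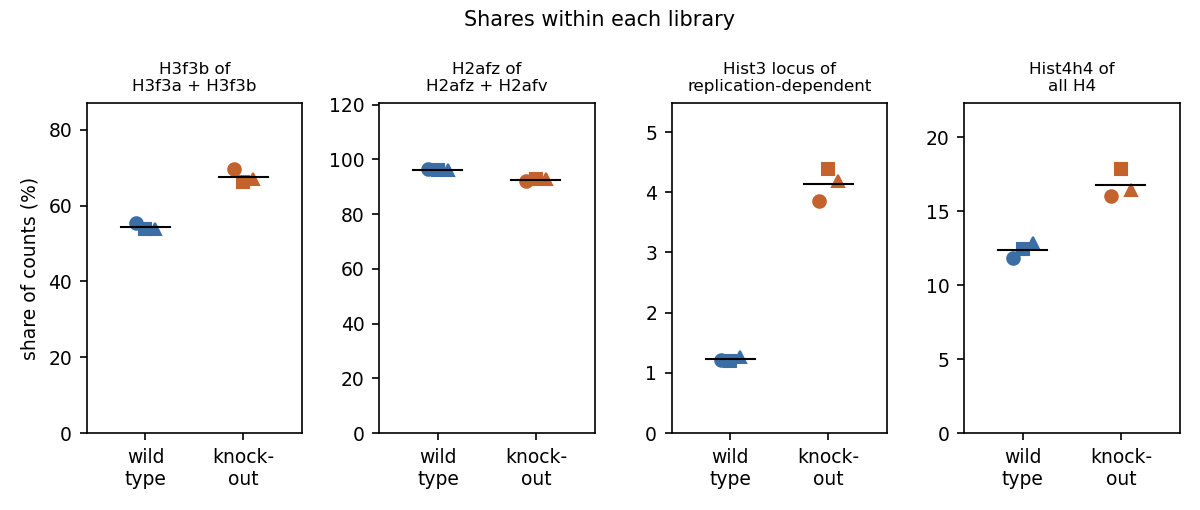
Shares of counts within each library (percent, axes from 0), with points for libraries and a line for each group mean. The knockout libraries lie above wild type for H3f3b, the Hist3 cluster and Hist4h4 and below it for H2afz, with no overlap in any of the 4 panels.

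Among replication-dependent H3 genes, only Hist1h3c was called. It had 87.2, 106 and 109 CPM in wild type and 76.7, 86.2 and 79.5 CPM in the knockout. The groups were separated by a narrow gap, and it fell (log2 -0.32 ± 0.109 SE, adjusted p = 0.0285 in edgeR). The call was lost without wild-type replicate 2 or 3, with adjusted p of 0.117 and 0.124, and with total counts as scaling, with an adjusted p of 0.179. Hist1h3f, the most counted H3 gene of the clusters, had 222, 260 and 256 CPM in wild type and 183, 257 and 282 CPM in the knockout, and its groups overlapped (log2 -0.03 ± 0.150 SE, adjusted p = 0.871 in edgeR).

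Among H4 genes, only Hist4h4, which lies outside the large clusters, was called. It had 183, 193 and 197 CPM in wild type and 188, 300 and 420 CPM in the knockout. Knockout replicate 1 lay within the wild-type range, and it rose in the test (log2 0.66 ± 0.222 SE, adjusted p = 0.0256 in edgeR), but that call was lost without any 1 of 5 libraries, with an adjusted p of up to 0.110. As a share of H4 counts it was 11.8%, 12.5% and 12.9% in wild type and 16.1%, 17.8% and 16.4% in the knockout, so within libraries the groups did not overlap. Hist1h4d, the most counted H4 gene, had 329, 259 and 352 CPM in wild type and 262, 324 and 576 CPM in the knockout, and it was not called (log2 0.30 ± 0.244 SE, adjusted p = 0.312 in edgeR).

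The called replication-dependent genes were set against their annotated ends. Of the 15 tested genes with a polyadenylation signal near the transcript end, 5 rose and 0 fell in edgeR, and 0 were lower at an unadjusted p under 0.05, with DESeq2 or with limma-voom. The 5 were Hist1h1c, Hist1h1t, Hist3h2a, Hist3h2ba and Hist4h4, and the calls of Hist1h1c and Hist4h4 depended on single libraries. The 5 are 33.3% of the 15, near the 27.9% called higher over all genes. Of the 45 without one, 3 rose and 2 fell (6.67% and 4.44%). The median log2 fold change was 0.39 in the first group and 0.02 in the second. Genes with the signal also had more words of their own, a median of 75.5% against 45.4%, and longer annotated transcripts, so these features cannot be told apart here. The 45 include genes annotated at about the length of a coding sequence, such as Hist2h2bb, in which a signal past the stop codon could not be found.

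With the library sizes set to the summed replication-dependent counts, a scaling chosen after the data were seen, the genes were compared relative to that sum. Hist1h1t, Hist1h2aa, Hist1h2ba, Hist3h2a, Hist3h2ba and Hist3h2bb-ps were higher, and 0 replication-dependent genes were lower in edgeR's test (1 at an unadjusted p under 0.05), with 18.8% of 14875 genes called. Standard errors were larger under this scaling, while the fold changes of the genes that lost their call moved little. For Hist1h2bn the log2 fold change was -0.63 ± 0.334 SE (-0.62 ± 0.148 before), for Hist1h3c -0.32 ± 0.313 (-0.32 ± 0.109), for Hist4h4 0.54 ± 0.266 (0.66 ± 0.222) and for Hist1h1c 0.33 ± 0.244 (0.39 ± 0.141).

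Most listed genes of histone mRNA processing, histone placement and S phase entry either fell or were not called. For 26 genes of histone mRNA 3′ end processing and decay, 10 fell and 2 rose (edgeR, 46.2% called, against 55.7% of all genes), with a median log2 fold change of -0.16. Upf1, a helicase that takes part in histone mRNA decay, fell most (log2 -1.28 ± 0.118 SE), from 155 to 63.8 CPM. Cstf3, a cleavage factor subunit, fell by 0.87, Zcchc11, a uridylyltransferase, by 0.81 and Ncbp2, of the cap-binding complex, by 0.79 on the log2 scale. Slbp, whose protein binds the stem-loop printed above, went from 164 to 145 CPM and was not called (log2 -0.18 ± 0.109 SE, adjusted p = 0.189 in edgeR).

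For 26 histone chaperones and exchange factors, 16 fell and 1 rose (edgeR, 65.4% called), with a median log2 fold change of -0.38. Over all genes tested 55.7% were called, 27.8% lower and 27.9% higher. Hira and Ubn2, of the complex that places H3.3 outside replication, fell by 1.11 each on the log2 scale, Hira from 90.9 to 42.2 CPM and Ubn2 from 115 to 53.4 CPM. Ep400, of an H2A.Z exchange complex, fell by 1.02 on that scale, and Supt6, a histone chaperone of elongating polymerase, fell as well (log2 -1.003). For 28 genes of S phase entry and origin firing, 16 fell and 2 rose (edgeR, 64.3% called), with a median of -0.42. Rrm2, of ribonucleotide reductase, fell by 1.19, the transcription factor gene E2f3 by 1.08 and the cyclin gene Ccne2 by 0.98. The cyclin-dependent kinase inhibitor gene Cdkn1c fell too (log2 -1.001). The summed level of that list was 6546 to 6841 CPM in wild type and 4737 to 4950 CPM in the knockout, so it separated the groups where the summed replication-dependent histone genes overlapped. Cenpa, the gene of the centromeric H3 variant, lies outside the symbol rule. It rose slightly (log2 0.30 ± 0.117 SE, adjusted p = 0.0489 in edgeR). That call was lost in edgeR with DESeq2 size factors (adjusted p = 0.0503) and with no filter (0.0526). It was also lost with DESeq2 as the test (adjusted p = 0.0521), with limma-voom (0.0540) and with any 1 of 5 libraries left out.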

How the data were processed

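RNA of 6 libraries, 3 wild-type and 3 Sirt6 knockout, was compared. The deposited table gives raw counts per gene symbol, without normalization; per the submitters' processing notes, the build was mm9 and the tools were TopHat2 2.0.10, HTSeq 0.6.1 and DESeq2, their roles not being stated. Per the file headers, the authors' own comparison holds a mean normalized signal (base mean), log2 fold changes and their standard errors, Wald statistics (a score) and p-values. For the strand setting, the annotation and reads with several matches, nothing is given in the sources used here.

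Counts were tested with edgeR 4.0.16 (R 4.3.3; glmQLFit and glmQLFTest, two-sided, TMM) on the 14988 genes kept by filterByExpr, with Benjamini-Hochberg adjustment over all of them and a threshold of 0.05. Standard errors of log2 fold changes are the size of the fold change divided by the square root of F. No set test was made. On simulated counts (14416 genes tested) the test found 60% of the genes changed 1.5-fold, 96% of those changed 2-fold and 100% of those changed by 4 or 8. The simulation gave every gene the same relative spread between libraries. The replication-dependent genes varied more, with a median coefficient of variation of 35.5% in the knockout against 14.1% over all tested genes. The simulated shares therefore do not apply to them. All pairs of libraries differed by more than sampling noise (lowest chi-square per degree of freedom 3.73). The spread behind each p-value is that between these libraries and may be technical.

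Members and lists were chosen with earlier results of these data known. Named genes were Sirt6, each replacement gene tested, up to 8 called replication-dependent genes per direction by adjusted p and the most counted one per family, up to 4 called genes per other list, and the markers; other genes were named after their values were seen. Gene structure, stem-loops and shared 50-base words come from GENCODE M21 (GRCm38), whose build is not the authors'; promoters come from RefSeq (GRCm38.p6). Stem-loops were searched by their 16-base pattern after the stop codon. Alternatives were DESeq2 size factors or total counts as scaling, other low-count filters, DESeq2 1.42.0 and limma-voom (limma 3.58.1) as tests, Rn45s, Rmrp and Rpph1 left out of library sizes, a replicate block, each library left out and, added after the data were seen, scaling to the replication-dependent sum.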

Additional observations from a re-analysis of the deposited data

How the results depend on the processing

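All 16 called histone genes kept their call and sign with DESeq2 size factors, no filter, a mean of at least 1 CPM, DESeq2, limma-voom and with Rn45s, Rmrp and Rpph1 left out of library sizes. With total counts as scaling, which moved the median of all genes from 0.01 to 0.13 (log2), 1 replication-dependent gene was lower in place of 2. Scaled to the replication-dependent sum, 0 were lower (edgeR; 1 at an unadjusted p under 0.05); Hist1h2bn and Hist1h3c kept log2 fold changes of -0.63 and -0.32, with larger standard errors. Leaving out each library gave 6 to 24 replication-dependent genes higher and 1 to 22 lower, and 2 to 4 replacement genes lower. Over all genes it gave 3580 to 4961 higher and 3352 to 4915 lower. The extremes of 24 and 22 came without knockout replicate 1 and without knockout replicate 3.

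Signs of genes that were not called turned with total counts for H2afy (log2 0.0200), Hist1h3f (0.0838), Esrrb (0.00857) and Zfp42 (0.0786). Over the libraries left out, signs also turned for H2afj (-0.0473 to 0.117), H2afx (-0.143 to 0.139), Hist1h1a (-0.226 to 0.296), Hist2h2bb (-0.230 to 0.381), Hist1h3f (-0.178 to 0.140), Hist1h4d (-0.117 to 0.528) and Zfp42 (-0.131 to 0.0674).

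The labels do not say that equal replicate numbers mark a shared culture or day. Deviations of same-numbered libraries from their group means correlated at 0.208, -0.025 and 0.201, and 2 of 3 wild-type libraries correlated best with the knockout library of their own number. With the replicate number as a block, 13 replication-dependent genes were higher and 15 lower, and 4 replacement genes were lower. Over all genes the counts went from 4182 to 4670 higher and from 4163 to 4682 lower. The 11 members that were not tested had at most 47 counts each over the 6 libraries.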
